A study of Schizosaccharomyces pombe with 9 samples.

Results

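The 6 genes described here, cut6 (SPAC56E4.04c), fas1 (SPAC926.09c), fas2 (SPAC4A8.11c), ura1 (SPAC22G7.06c), spp42 (SPAC4F8.12c) and brr2 (SPAC9.03c), are among the long protein-coding genes of the fission yeast Schizosaccharomyces pombe. They were picked by identifier from a deposited table of read counts for 6988 annotated features, for their length and for their roles in lipid synthesis, pyrimidine synthesis and splicing. The rule itself uses no measured value, but the genes were chosen with earlier results of these data known. The series sequenced polyadenylated RNA of 3 strains, each as 3 biological replicates, so that p-values measure the spread between those replicates. All strains were of mating type h-, and log-phase cultures at 30 °C in YES, a rich medium, were harvested. The control was the strain Sp1, labelled WT. The strain ASY240 carries rsm1∆::natMX, a deletion of rsm1 marked with the drug resistance gene natMX. The strain IAP105 carries the allele nup211-1435* together with a wild-type asp1 gene marked with kanMX, so that the allele and the marked asp1 locus cannot be told apart in its comparisons, just as rsm1∆ cannot be told apart from natMX. Rsm1 and Nup211 are proteins of the nuclear basket, the structure on the inner face of the nuclear pore through which mRNA leaves the nucleus.

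The genes fall into 3 pathways. Cut6 is acetyl-CoA carboxylase, the biotin-dependent enzyme that commits acetyl-CoA to fatty acid synthesis, and it is named for the cut phenotype of its mutants, in which the septum is laid down across an undivided nucleus. Fas1 and Fas2 are the beta and alpha subunits of the cytosolic fatty acid synthase, which takes the malonyl-CoA made by Cut6 and which is assembled from both subunits in equal numbers. Ura1 joins the first steps of pyrimidine synthesis, carbamoyl phosphate synthase and aspartate carbamoyltransferase, in one polypeptide. Spp42, the fission yeast Prp8, forms the scaffold around the catalytic centre of the spliceosome, and Brr2 is the RNA helicase that unwinds the U4 and U6 snRNAs to activate it. Both belong to the U5 snRNP. What the genes share beyond their roles is size, with proteins of 2247 (Cut6), 2073 (Fas1), 1842 (Fas2), 2244 (Ura1), 2363 (Spp42) and 2176 residues (Brr2). Annotated exon length was 7140 nt for cut6, 6925 nt for fas1, 5753 nt for fas2, 6948 nt for ura1, 7306 nt for spp42 and 6835 nt for brr2. All lie on chromosome I, and cut6 alone among them has an annotated intron, of 622 nt.

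Total counts per library ranged from 20.98 to 28.11 M, and the 6 genes together took 0.633% to 0.840% of them. A count of 3 corresponded to 0.107 to 0.143 CPM, far below the level of any of the 6 genes. That figure covers counting error only. CPM stands for counts scaled to a common library total, with the trimmed mean of M values (TMM) as scaling. The gene rsm1 was still counted in the libraries of the strain labelled rsm1∆, at 31.8 ± 1.25 CPM beside 36.7 ± 0.398 in WT (SD, n = 3), and they are therefore called the rsm1∆-labelled libraries throughout. A whole-gene count does not show the nup211-1435* allele. The level of nup211 was 180 ± 10.5 CPM in WT, 249 ± 16.7 in the rsm1∆-labelled libraries and 267 ± 8.23 in nup211-1435*. That of asp1 was 131 ± 2.28, 149 ± 5.41 and 199 ± 2.13 CPM. Against WT the log2 fold changes of nup211 were 0.47 and 0.57. Those of asp1 were 0.19 and 0.60, the larger in the strain with the marked asp1 gene. The P markers map2 and map3, used by h+ cells, summed to 18.9 to 21.8 CPM in WT, 22.4 to 25.6 in the rsm1∆-labelled libraries and 19.0 to 20.4 in nup211-1435*. A further gene listed as a P marker, sxa1, stood far higher. It had 605 ± 21.7 CPM in WT, 609 ± 7.62 in the rsm1∆-labelled libraries and 510 ± 3.12 in nup211-1435*. Whether h+ cells were present was not tested.

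The lipid genes, the pyrimidine gene and the splicing genes took different courses. In the rsm1∆-labelled libraries, 3 of the 6 genes fell (cut6, fas1 and fas2), 2 rose (spp42 and brr2) and ura1 did not pass the test, at an adjusted p under 0.05 in edgeR's quasi-likelihood test. In nup211-1435*, 3 rose (ura1, spp42 and brr2), 1 fell (fas2), and cut6 and fas1 did not pass. Beside the 5 genes called in the first comparison stand 70.7% of all 6227 features tested, of which 36.7% rose and 34.1% fell. Beside the 4 called in the second stand 64.9%, with 32.9% rising and 32.0% falling. In the first comparison the libraries of 5 members did not overlap WT, as those of 74.1% of features did not, and in the second those of 5 members, beside 67.8%. The shares of called members are thus close to those of all features, and it is the order among the members that the values below describe. Of all calls, 51.9% were rises in the first comparison and 50.7% in the second. With scaling by total counts in place of TMM these shares were 69.2% and 71.1%, because the median log2 fold change of all features moved from 0.01 to 0.16 and from 0.01 to 0.14.

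Between genes, levels were compared as CPM per kb of annotated exon. In WT, fas1 stood highest at 276 ± 2.82, followed by fas2 at 260.0 ± 7.01, ura1 at 209 ± 12.9 and cut6 at 207 ± 4.16 (SD, n = 3). The splicing genes were several-fold lower, with spp42 at 44.4 ± 0.714 and brr2 at 43.8 ± 1.29 CPM per kb. Neighbours in this order that overlapped between libraries were ura1 with cut6, and spp42 with brr2. Among 5108 protein-coding genes ranked from the highest level per kb, fas1 had rank 460 and cut6 rank 570, while spp42 and brr2 had ranks 2344 and 2378.

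The order changed in both mutants. In the rsm1∆-labelled libraries, fas1 at 222 ± 6.06 and ura1 at 220.2 ± 6.39 CPM per kb overlapped, ahead of fas2 at 206 ± 3.00 and cut6 at 172 ± 5.57. There spp42 at 66.3 ± 2.23 no longer overlapped brr2 at 53.6 ± 0.935. In nup211-1435*, fas1 at 289.6 ± 6.19 and ura1 at 289 ± 10.5 again overlapped, and so did fas2 at 221 ± 4.28 and cut6 at 214 ± 3.70. The levels of spp42 and brr2 there were 85.3 ± 2.82 and 69.7 ± 2.97 CPM per kb. The cut6 mean exceeded the spp42 mean 4.67-fold in WT, 2.60-fold in the rsm1∆-labelled libraries and 2.51-fold in nup211-1435*.

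**Figure D1:**
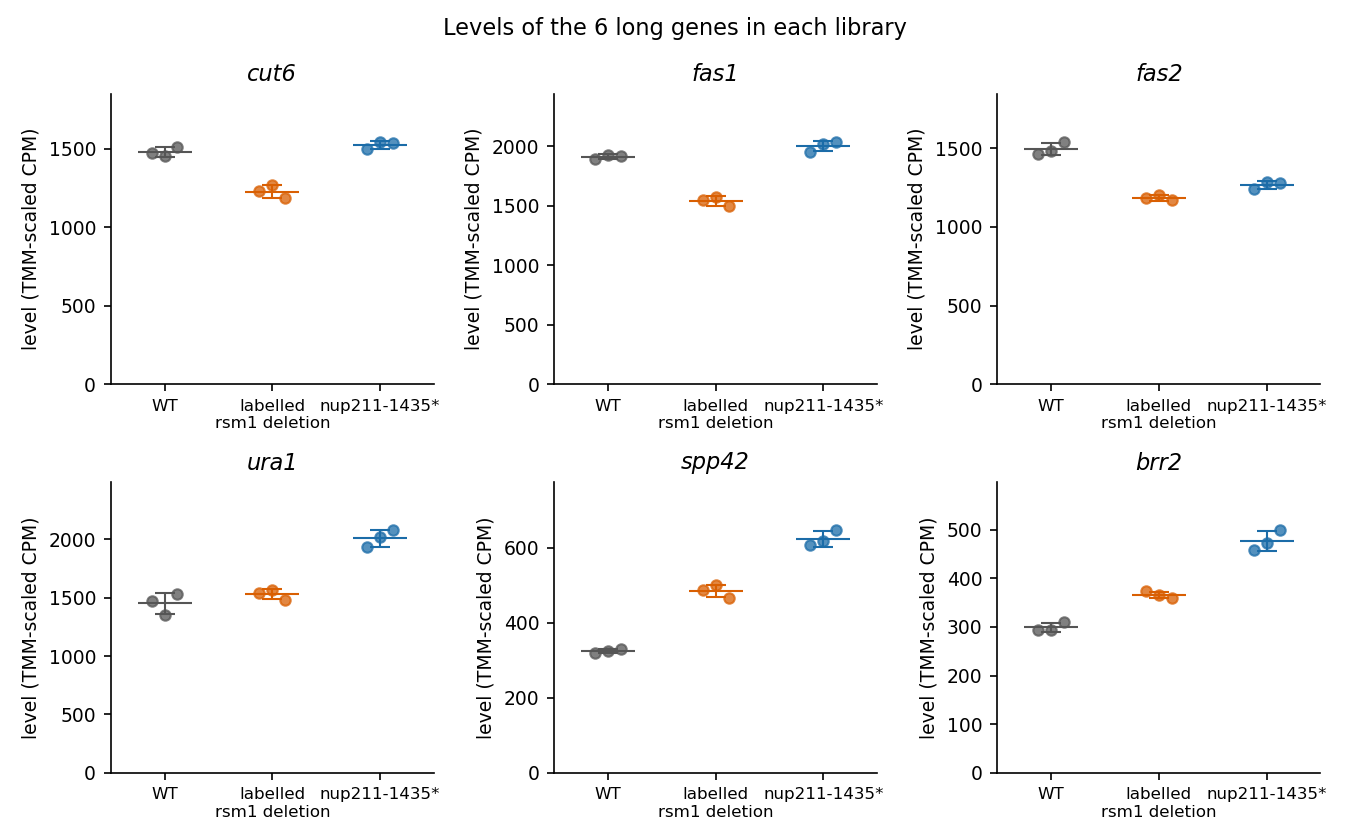
Level in CPM (y axis from 0) of each gene in the 9 libraries, as points, with the mean and SD of each strain (n = 3) as a bar. The lipid genes dip in the rsm1∆-labelled libraries, ura1 is higher in nup211-1435* than in either other strain, and spp42 and brr2 step up from WT to nup211-1435*.

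The first enzyme of fatty acid synthesis, cut6, had 1473, 1453 and 1512 CPM in WT, 1229.6, 1267 and 1188 in the rsm1∆-labelled libraries, and 1496.5, 1544 and 1540.2 in nup211-1435*. The rsm1∆-labelled libraries all lay below WT, whereas those of nup211-1435* overlapped WT. The log2 fold change was -0.27 (SE 0.03, adjusted p = 1.34e-06), or a change of -17.0%, in the former and 0.046 (SE 0.03, adjusted p = 0.202) in the latter, which passed the test with total-count scaling (0.18). It became a called fall (-0.45) with the length offset, a fit that takes out a smooth trend with exon length of each library’s log2 CPM relative to the mean of all libraries.

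The beta subunit gene fas1 had 1890.1, 1925 and 1923 CPM in WT. It had 1546, 1578 and 1495 CPM in the rsm1∆-labelled libraries and 1957, 2022 and 2037 in nup211-1435*. All libraries of the former lay below WT and all of the latter lay above it. The fall was called at -0.31 (SE 0.03, adjusted p = 1.44e-07). The difference in nup211-1435* was small, 0.068 (SE 0.03), and its adjusted p of 0.0502 missed the threshold. It passed with total-count scaling (0.20) and without replicate 1 of nup211-1435* (adjusted p = 0.0281) or replicate 2 or 3 of the rsm1∆-labelled libraries (adjusted p = 0.049 and 0.0414), and with the length offset it was a called fall (-0.42). The authors' deposited table gives fas1 a log2 fold change of 0.069 there with an adjusted p of 0.0249.

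The alpha subunit gene fas2 was lower than WT in both mutants. It had 1463, 1483 and 1541 CPM in WT, 1182, 1204 and 1170.2 in the rsm1∆-labelled libraries, and 1240.25, 1284 and 1282 in nup211-1435*. No library of either mutant reached the lowest WT value. The log2 fold changes were -0.34 (SE 0.03, adjusted p = 6.96e-08) and -0.24 (SE 0.03, adjusted p = 3.94e-06), so that the level fell by 20.7% and fell by 15.2%.

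The ratio of fas1 to fas2 mRNA was higher in nup211-1435* than in the other strains. Per kb it was 1.07, 1.08 and 1.04 in the WT libraries, 1.09, 1.09 and 1.06 in the rsm1∆-labelled ones, and 1.31, 1.31 and 1.32 in nup211-1435*. This ratio is taken within a library, so no factor that scales a whole library can move it. The length offset differs between genes of different length. With it the log2 fold changes of fas1 and fas2 in nup211-1435* against WT were -0.42 and -0.63, beside 0.068 and -0.24 without it. The ratio itself was not recomputed with the offset. Its mean was 1.06 ± 0.0228 in WT and 1.08 ± 0.0153 in the rsm1∆-labelled libraries (SD, n = 3), which overlapped (two-sided exact permutation test, p = 0.5). In nup211-1435* it was 1.31 ± 0.00639, above every other library. The log2 difference from WT was 0.31 (SE 0.02) and that from the rsm1∆-labelled libraries 0.28 (SE 0.01), each with an exact p of 0.1, which is the smallest that 3 against 3 libraries can give.

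**Figure D2:**
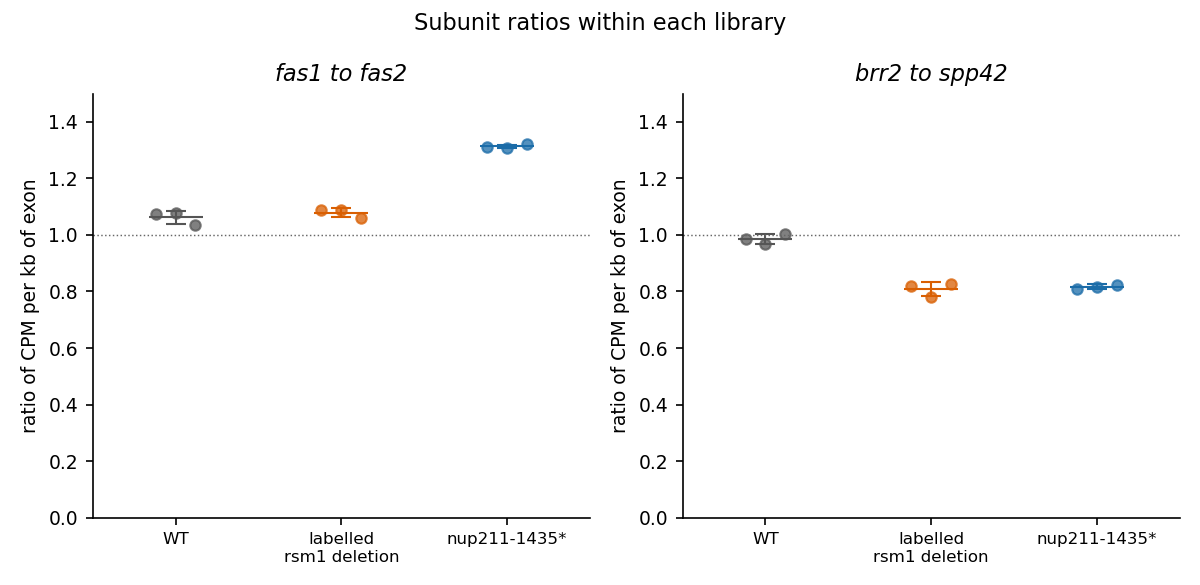
Ratio of CPM per kb of exon (y axis from 0) of fas1 to fas2 and of brr2 to spp42 within each library, with mean and SD per strain (n = 3). The fas1 to fas2 ratio sits at 1.31 in nup211-1435* alone, whereas brr2 to spp42 is near 0.81 to 0.82 in both mutants and 0.99 in WT.

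The pyrimidine gene ura1 had 1471, 1355 and 1530.5 CPM in WT, the widest spread of the 6 genes within a strain, with an SD of 89.5 CPM or 6.16% of the mean. It had 1541, 1567 and 1481 CPM in the rsm1∆-labelled libraries, which overlapped WT. The nup211-1435* libraries, at 1932, 2022 and 2076 CPM, stood above all the others. The log2 fold change was 0.075 (SE 0.04, adjusted p = 0.130) in the rsm1∆-labelled libraries and 0.47 (SE 0.04, adjusted p = 3.68e-07), or 38.4% more, in nup211-1435*. The former value was 0.11 and passed (adjusted p = 0.0239) without WT replicate 3, and it was 0.22 and passed with total-count scaling. With the length offset it was a called fall of -0.32, and the rise in nup211-1435* was lost (-0.018, adjusted p = 0.661).

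The splicing scaffold gene spp42 showed the largest rise of the 6 genes in both mutants. Its level was 319, 324 and 329.8 CPM in WT, 486, 499 and 467 in the rsm1∆-labelled libraries and 606, 617 and 646 in nup211-1435*. The strains formed 3 separate steps without overlap. The rise was 0.58 on the log2 scale (SE 0.03, adjusted p = 8.85e-10) in the rsm1∆-labelled libraries and 0.94 (SE 0.03, adjusted p = 6.5e-12), or 92.1% more, in nup211-1435*.

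The helicase gene brr2 followed the same steps with a smaller size. It had 295, 294 and 309 CPM in WT, 373, 365 and 360.3 in the rsm1∆-labelled libraries and 458, 471 and 498 in nup211-1435*. Again no library overlapped another strain. The log2 fold changes were 0.29 (SE 0.04, adjusted p = 2.52e-06) and 0.67 (SE 0.04, adjusted p = 3.7e-10). With the length offset the former became a called fall (-0.098, adjusted p = 0.0035) and the latter was 0.19.

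The ratio of brr2 to spp42 per kb was 0.986, 0.969 and 1.00 in the WT libraries. It was 0.820, 0.782 and 0.825 in the rsm1∆-labelled ones and 0.809, 0.817 and 0.825 in nup211-1435*. Both mutants lay below WT and overlapped each other. The log2 difference from WT was -0.29 (SE 0.03) and -0.27 (SE 0.02), each with an exact permutation p of 0.1, the smallest possible, and the mutants differed by 0.014 (SE 0.03, exact p = 0.9).

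Compared directly with the rsm1∆-labelled libraries, nup211-1435* was higher for all 6 genes. Of all features tested, 50.2% were called in that comparison, with 24.5% of all features rising and 25.7% falling. Long genes shared the rise. Of the 34 other protein-coding genes within the exon length range of the 6, 21 rose and 5 fell (median 0.19). Of the 18 genes over 8 kb, 18 rose. The log2 differences were 0.31 for cut6, 0.38 for fas1, 0.39 for ura1, 0.36 for spp42 and 0.38 for brr2, with SEs of 0.03 to 0.04 and adjusted p from 9.5e-08 to 5.67e-06. The gene fas2 stood apart, with a difference of 0.098 (SE 0.03, adjusted p = 0.0118). Without replicate 2 of nup211-1435* this difference was 0.089 and its adjusted p 0.0521. For all 6 genes the libraries of the 2 mutants did not overlap, a pattern that 59.0% of all features showed. The comparisons with WT share the WT libraries, so their values are given side by side and were not correlated.

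Long genes as a class were higher in both mutants, and the 6 genes have to be read beside that. Among protein-coding genes, the median log2 fold change in the rsm1∆-labelled libraries was -0.19 below 1 kb of exon, 0.12 at 2 to 3 kb, 0.31 at 4 to 5.5 kb and 0.29 at 5.5 to 8 kb. In nup211-1435* the medians of the same classes were -0.12, 0.06, 0.29 and 0.53, and the 18 genes over 8 kb had a median of 1.30 there beside 0.24 in the rsm1∆-labelled libraries. In the range from fas2 to spp42, 5753 to 7306 nt, lay 40 protein-coding genes, all of them tested. The 34 that are not among the 6 genes had medians of 0.33 and 0.54, and 28 of them rose and 1 fell in the rsm1∆-labelled libraries, while 28 rose and 3 fell in nup211-1435*.

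Within this length range the lipid genes lay at the low end. In nup211-1435*, fas2 was the lowest of the 40 genes, cut6 had 4 genes below it and fas1 had 7. In the rsm1∆-labelled libraries, 2 genes were lower than fas2, 3 lower than fas1 and 4 lower than cut6. The gene ura1 lay 9 genes from the bottom in the rsm1∆-labelled libraries and 16 in nup211-1435*. The splicing genes lay in the upper part for spp42, with 8 and 3 genes above it, while brr2 had 21 and 8 above it.

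**Figure D3:**
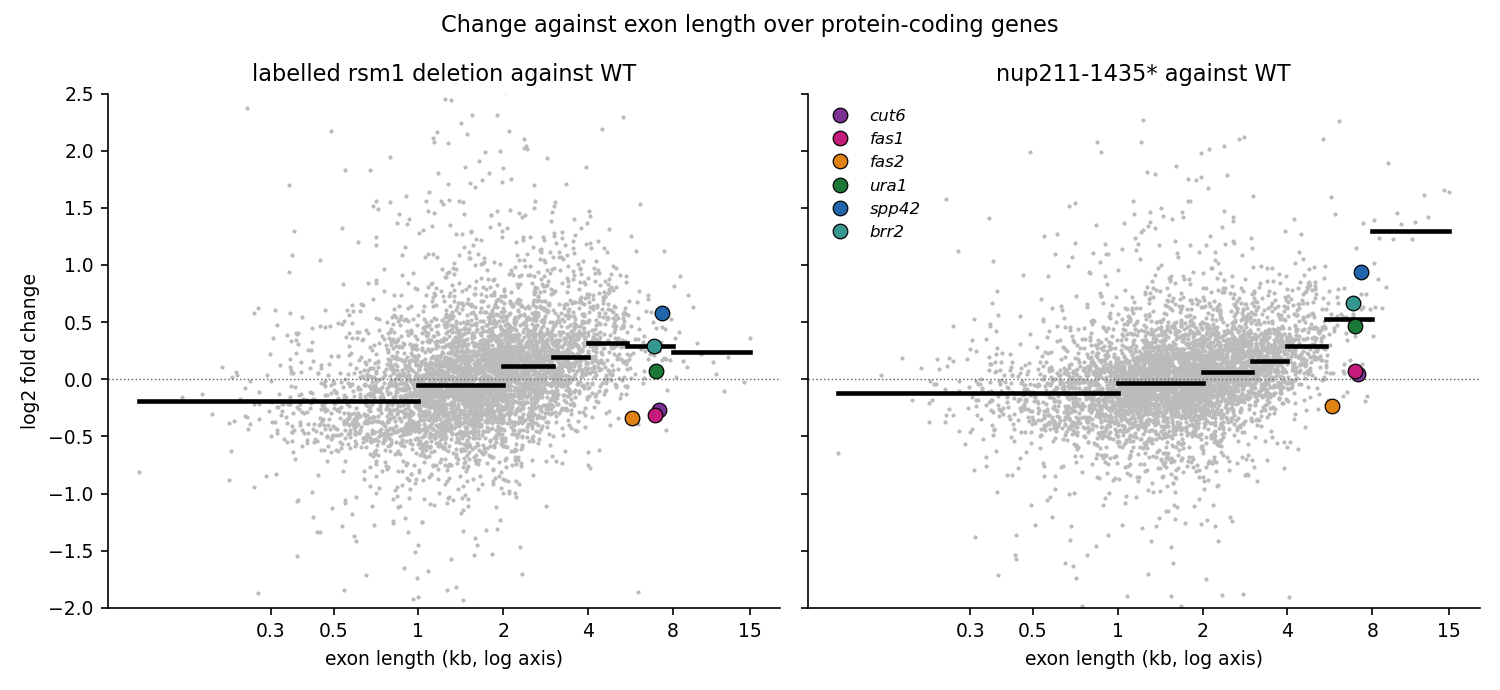
Log2 fold change against exon length (kb, log axis) for the protein-coding genes tested (grey), with the median of each length class as a black line and the 6 genes in colour. The y axis runs from -2 to 2.5 and leaves out 22 genes on the left and 26 on the right. On the left spp42 exceeds the median of its length class, brr2 lies on it, and the lipid genes and ura1 lie below it. On the right spp42 and brr2 lie above the median, ura1 slightly below and the lipid genes well below.

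With the length offset, whose trend was fitted over all protein-coding genes, the position of the 6 genes changed accordingly. In the rsm1∆-labelled libraries the values became -0.32 for ura1 (adjusted p = 1.79e-06) and -0.098 for brr2 (adjusted p = 0.0035), and spp42 alone rose, at 0.17, while 5 genes fell. In nup211-1435* cut6 came to -0.45 (adjusted p = 2.69e-10), fas1 to -0.42 (adjusted p = 2.27e-10) and ura1 to -0.018 (adjusted p = 0.661). There spp42 at 0.43 and brr2 at 0.19 still rose. The directions of ura1 and brr2 in the former and of cut6, fas1 and ura1 in the latter thus depended on whether the length trend was kept, and the rise of ura1 in nup211-1435* was lost without it.

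Levels within the length range are given beside this split. The 4 genes of the length range whose mean over the 9 libraries exceeded 1000 CPM were exactly cut6, fas1, fas2 and ura1. Of the 12 genes below 100 CPM, 8 rose in each mutant, with medians of 0.26 and 0.45, and of the 15 between 100 and 300 CPM, 14 rose in the rsm1∆-labelled libraries (median 0.45) and 13 in nup211-1435* (median 0.53). Of the 9 genes between 300 and 1000 CPM, 8 rose in the former and 9 in the latter. The counts and medians of these bands support nothing, because the mean that sets each band includes the mutant libraries. The genes brr2 and bfr1 reach 300 CPM only through their levels in the mutants. Likewise bgs2 and cdc20, at 73.7 and 80.6 CPM in WT, reach 100 CPM only through the mutants. Over all 40 genes, level and log2 fold change had a Spearman's rho of -0.11 and a Pearson's r of 0.33 in the rsm1∆-labelled libraries, and of 0.084 and 0.050 in nup211-1435*, a description across genes that are not independent. Protein-coding genes of any length above 1000 CPM were picked by the same mean, so a gene can pass through its WT level. Among all 189 of them, 164 fell and 16 rose in the rsm1∆-labelled libraries (median -0.35), and 162 fell and 7 rose in nup211-1435* (median -0.34). With total-count scaling 150 fell and 22 rose in the former and 142 fell and 19 rose in the latter. Of these abundant genes 8 had at least 4 kb of exon, the 4 named here and pma1, sir1, tif471 and bgs4, and among those last 4 genes 1 rose and 1 fell in each mutant. The parts of length and level in the values of the 6 genes were not tested separately.

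**Figure D4:**
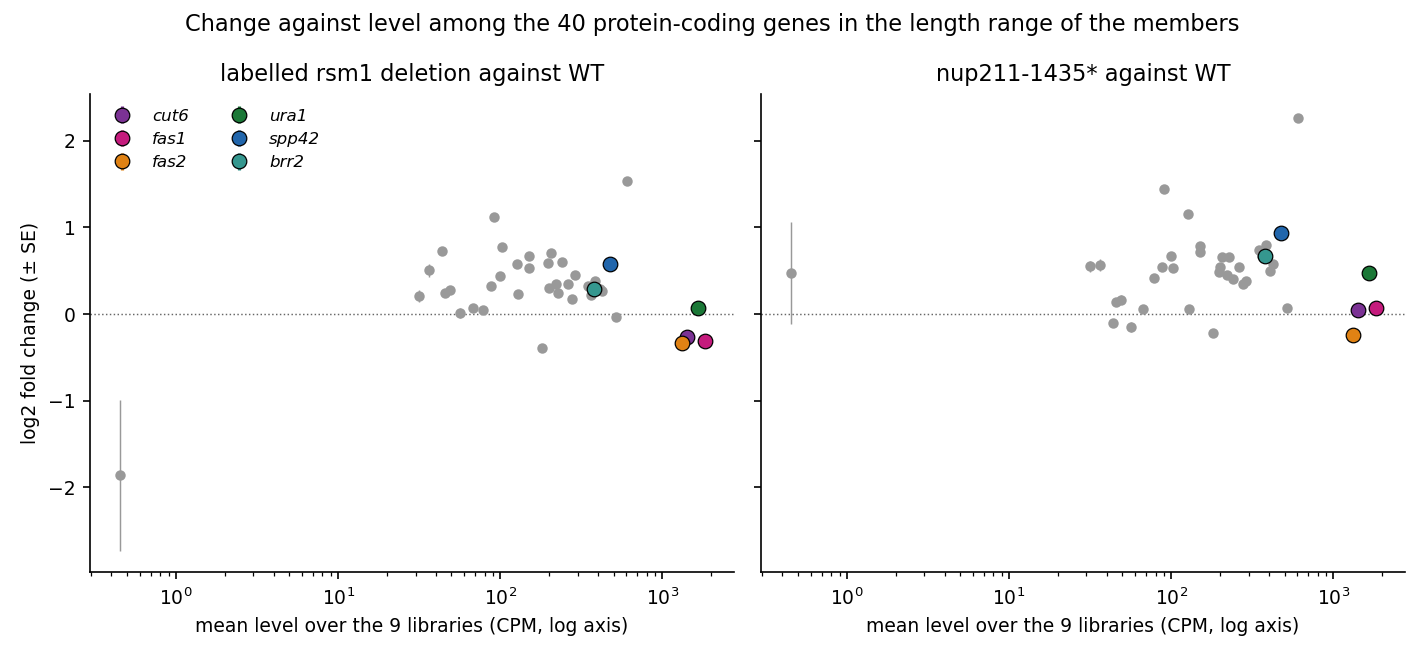
Log2 fold change (± SE) against the mean level over the 9 libraries (CPM, log axis) for the 40 protein-coding genes of 5753 to 7306 nt, with the 6 genes in colour. The 4 genes at the right-hand edge, above 1000 CPM, are cut6, fas1, fas2 and ura1, and the 3 lipid genes are lower than nearly all the others. The point at the far left is tlh2, whose level was below 1 CPM.

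Among the genes of the fatty acid list, vht1, which encodes the plasma membrane importer of biotin, the cofactor of Cut6, fell from 455 ± 32.6 CPM to 246 ± 2.76 in the rsm1∆-labelled libraries (-0.89, SE 0.05, adjusted p = 1.19e-09) and to 186 ± 8.22 in nup211-1435* (-1.29, SE 0.05, adjusted p = 4.67e-11). The gene bpl1, for the ligase that attaches biotin to carboxylases, fell by 0.58 and by 0.22 on the log2 scale, from 126 ± 3.24 CPM to 84.6 ± 1.85 and 108 ± 1.41. The gene acs1, for acetyl-CoA ligase, which makes the substrate of Cut6 from acetate, fell by 0.67 and by 0.70, from 371 ± 10.3 CPM. Among regulators of lipid genes, cbf11, whose product activates cut6 in this yeast, had log2 fold changes of 0.21 and 0.09, its relative cbf12 rose from 40.8 ± 3.40 CPM to 186 ± 6.23 (2.19) and to 98.6 ± 8.82 (1.27), and mga2 rose by 0.43 and by 0.41. The acyl-CoA desaturase gene ole1 was not called in the rsm1∆-labelled libraries (-0.17, adjusted p = 0.071) and fell by 0.38 in nup211-1435*, where the elongase gene elo1 fell by 0.44. The triacylglycerol lipase gene ptl3 rose by 0.26 and by 0.31. The call of cbf11 in nup211-1435* was lost without WT replicate 1 (adjusted p = 0.0619) or without its own replicate 2 or 3 (adjusted p = 0.0753 and 0.0905). With the length offset cbf11 was not called in the rsm1∆-labelled libraries (0.0082, adjusted p = 0.804) and was a called fall in nup211-1435* (-0.078, adjusted p = 0.0223). The value of ole1 in the rsm1∆-labelled libraries passed without WT replicate 1 (adjusted p = 0.0428), without replicate 3 of those libraries (0.023) or of nup211-1435* (0.0292). It also passed, as a fall, in DESeq2's Wald test (adjusted p = 0.0116). The same held for the fit of only the 2 strains compared (adjusted p = 0.036) and the length offset (adjusted p = 0.0207).

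Without cut6, fas1 and fas2, the list of fatty acid genes held 18, of which 6 fell and 5 rose in the rsm1∆-labelled libraries (median -0.06) and 12 fell and 4 rose in nup211-1435* (median -0.17), beside all-feature medians of 0.01 and 0.01. Beside the counts of this and the next lists, 34.1% and 32.0% of all features fell and 36.7% and 32.9% rose. Of 26 sterol genes, 15 and 14 fell and 4 and 7 rose, but 8 and 7 fell and 10 and 10 rose with total-count scaling. Among them hcs1, the HMG-CoA synthase gene, fell by 0.51 and by 0.45 and the sterol desaturase gene erg31 fell by 0.72 in nup211-1435*. Of 12 sphingolipid genes, 5 and 9 fell and 2 and 0 rose, among them lcb4, a sphinganine kinase gene, at -0.49 and -0.44, and scs7, a hydroxylase gene, at -0.29 and -0.42. In glycerolipid synthesis, 8 of 15 genes rose and 4 fell in the rsm1∆-labelled libraries, and 4 rose and 5 fell in nup211-1435*. The largest falls on that list were slc1 (-0.61), for an acyltransferase that makes phosphatidic acid, in the former and gpd2 (-0.81), for glycerol-3-phosphate dehydrogenase, in the latter, and nem1, for the catalytic subunit of the lipin phosphatase, rose by 0.55 and by 0.37. With total-count scaling the median of the sterol list was 0.013 and 0.054. In the rsm1∆-labelled libraries that scaling gave 9 rising and 8 falling genes for the full fatty acid list (median 0.042) and 5 rising and 3 falling for sphingolipids (median 0.085). In nup211-1435* it gave 7 rising and 8 falling for fatty acids, 1 rising and 5 falling for sphingolipids, and 9 rising and 4 falling for glycerolipids (median 0.13).

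The genes ura2, ura3, ura5, ura6 and cts1, for enzymes that follow Ura1, did not rise in nup211-1435*, the only mutant where ura1 was called higher. That rise of ura1 was lost with the length offset (-0.018, adjusted p = 0.661). The gene ura2, for dihydroorotase, fell by 0.37 (SE 0.04, adjusted p = 2.19e-07) in the rsm1∆-labelled libraries and stood at -0.06 (adjusted p = 0.148) in nup211-1435*. The gene ura3, for dihydroorotate dehydrogenase, had 750.2 ± 44.8 CPM in WT and fell by 0.35 and by 0.20, and ura5, for orotate phosphoribosyltransferase, fell by 0.47 and by 0.30. Further along, ura6, for uridylate kinase, fell by 0.55 and by 0.49, and cts1, for CTP synthase, by 0.35 and by 0.27. The gene ura4, for orotidine 5′-phosphate decarboxylase, was listed at 0 in all 9 libraries, WT included, as were 29 other protein-coding genes, and the labels name no ura4 allele. In salvage, urk1, for uridine kinase, rose by 0.51 and by 0.13, and urg1, a gene of uracil breakdown, rose by 1.44 and by 0.56, the latter with an adjusted p of 0.0501 without replicate 3 of nup211-1435*. With total-count scaling the fall of ura3 in nup211-1435* was not called (-0.061, adjusted p = 0.164). Over the 15 pyrimidine genes tested, ura1 included, 7 fell and 3 rose in the rsm1∆-labelled libraries (median -0.065) and 8 fell and 4 rose in nup211-1435* (median -0.18). With total-count scaling 6 fell and 7 rose in the former (median 0.078) and 5 fell and 5 rose in the latter (median -0.043).

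A separate carbamoyl phosphate synthase serves arginine. Its large subunit gene arg4 fell from 1155 ± 13.6 CPM to 863 ± 20.9 in the rsm1∆-labelled libraries (-0.42, SE 0.03, adjusted p = 7.45e-09) and to 673 ± 19.0 in nup211-1435* (-0.78, SE 0.03, adjusted p = 1.3e-11). The small subunit gene arg5 fell by 0.52 and by 0.89, arg3, for ornithine carbamoyltransferase, by 0.71 and by 0.99, and arg12, for argininosuccinate synthase, had log2 fold changes of -0.71 and -1.10. The arginase gene car1 rose by 0.93 and by 0.67. Between the mutants arg4 was lower in nup211-1435* by a log2 difference of -0.36 (adjusted p = 2.27e-07), and ura1 was higher by 0.39. Of 9 arginine genes, 7 and 6 fell and 1 and 2 rose, where 34.1% and 32.0% of all features fell and 36.7% and 32.9% rose. Of 12 purine genes, 11 fell and 0 rose in each mutant, ade10 by 0.77 in both, gua2 by 0.50 in the rsm1∆-labelled libraries and ade2 by 0.62 in nup211-1435*. With total-count scaling 10 and 7 purine genes fell and 1 and 1 rose.

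**Figure D5:**
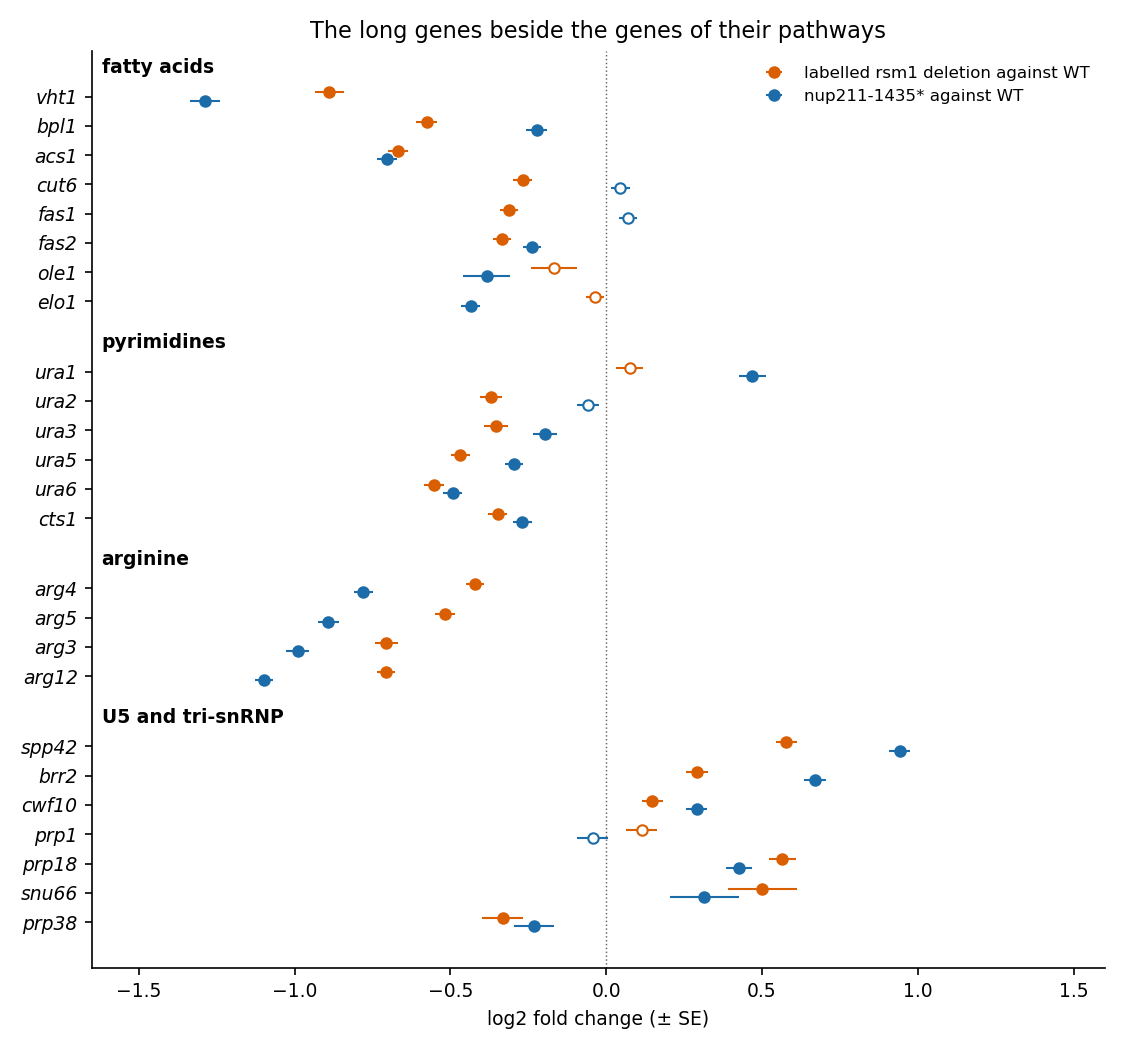
Log2 fold change (x axis, ± SE) of the 6 genes beside genes of their pathways, in the rsm1∆-labelled libraries (orange) and in nup211-1435* (blue), each against WT. Filled points passed the test and open points did not. In nup211-1435* ura1 lies right of zero while ura3, ura5, ura6, cts1 and the arginine genes lie left of it, and spp42 is the rightmost point drawn.

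With TMM scaling, the partners of Spp42 and Brr2 in the U5 snRNP and the tri-snRNP were mixed. The third large U5 protein, the GTPase Cwf10, had a gene level of 155 ± 5.10 CPM in WT and rose by 0.15 (SE 0.03, adjusted p = 0.00124) and by 0.29 (SE 0.03, adjusted p = 2.43e-06), the former lost with the length offset (-0.056, adjusted p = 0.125). The gene prp1, for a protein that bridges the U5 and U4/U6 particles, did not pass the test in either mutant (0.11 and -0.04). The gene prp18 rose by 0.57 and by 0.43 and snu66 by 0.50 and by 0.32, whereas prp38 fell by 0.33 and by 0.23. In nup211-1435* the call of snu66 was lost without replicate 1 or 2 of WT or of nup211-1435* (adjusted p = 0.0648 to 0.13) and with the replicate block (adjusted p = 0.0759), and that of prp38 with total-count scaling (adjusted p = 0.203). Both were also lost there with the length offset (adjusted p = 0.178 and 0.111). In the rsm1∆-labelled libraries prp1 passed without WT replicate 2 or 3, their own replicate 3 or replicate 1 or 3 of nup211-1435* (adjusted p = 0.027 to 0.0495) and with total-count scaling (0.26, adjusted p = 0.000342). With the length offset prp1 was a called fall in nup211-1435* (-0.17, adjusted p = 0.0108). Without spp42 and brr2, 6 of these 14 genes rose and 4 fell in each mutant, with medians of 0.13 and 0.09. The 6 rising of 14 stand beside 36.7% and 32.9% of all features. With spp42 and brr2 included, 8 of 16 rose and 4 fell in each mutant, with medians of 0.18 and 0.17. With total-count scaling 11 and 10 of the 16 rose and 2 and 0 fell. With the length offset 5 and 6 rose and 4 and 3 fell, with medians of -0.054 and 0.076.

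Of 30 genes of the Prp19-associated complex and the later splicing helicases, 16 and 15 rose and 5 and 5 fell, with medians of 0.16 and 0.14. Of all features, 36.7% and 32.9% rose and 34.1% and 32.0% fell. With total-count scaling 24 and 21 of the 30 rose and 1 and 1 fell. With the length offset 13 and 12 rose and 7 and 5 fell. The helicase gene prp16 rose by 0.40 and by 0.43 and cwf16 by 0.74 and by 0.47, while cyp1, for a cyclophilin, fell by 0.87 and by 0.37. Of 38 genes for U1 and U2 snRNP and Sm proteins, 19 and 17 fell and 11 and 9 rose. Among these prp11, for a helicase of the U2 step, rose by 0.99 and by 0.86, while rsd1 had log2 fold changes of -0.92 and -0.92 and the Sm protein gene smf1 of -0.76 and -0.54. With total-count scaling 7 and 7 of the 38 fell and 15 and 15 rose, and the medians went from -0.13 and -0.092 to 0.015 and 0.042.

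Over the 9 libraries, the level of cut6 was closest to that of fas1 among the 6 genes, with a Pearson correlation of log2 CPM of 0.99, and spp42 was closest to brr2, at 0.98. The correlation of ura1 was 0.94 with brr2 and 0.51 with fas1, and that of fas2 was 0.60 with fas1 and -0.75 with spp42. These values describe 9 libraries that fall into 3 strains and carry no test. Among 4882 candidate features with a mean of at least 10 CPM, the profiles most like those of the long genes were gtp1 for cut6 (0.987), srp72 for fas1 (0.992) and moe1 for fas2 (0.995), all of them short genes of 1279, 1753 and 1902 nt. Next in likeness were SPAC11H11.03c, of 834 nt, for cut6 (0.984) and fas1 (0.987), and SPBC543.02c, of 1985 nt, for fas2 (0.994). For ura1 the most similar profiles were utp20 (0.993) and nuc1 (0.991). They were cft1 (0.998) and mok12 (0.997) for spp42, and tor2 (0.998) and tor1 (0.997) for brr2. The matches of ura1, spp42 and brr2 are long genes, from 4959 nt for cft1 to 8094 nt for mok12.

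Reads from the opposite strand could touch some of these values, since the strand setting of the counting is not given in the sources used here. Features annotated on the opposite strand cover 59.8% of the fas1 exon, 44.3% of spp42, 39.2% of brr2, 25.0% of cut6, 9.3% of fas2 and 6.0% of ura1. Most are noncoding RNAs of the reference annotation without a row in the count table. Of those with a row, sea2 shares 2219 nt with spp42. It had 63.7 ± 0.976 CPM in WT and rose by 0.45 and by 0.34. SPAC56E4.03, which shares 122 nt with cut6, fell by 0.37 and by 0.50, and rog1 shares 5 nt with fas2. The part of these features in the values of the 6 genes was not tested.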

How the data were processed

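The authors deposited raw read counts per feature, per the file headers, made with HISAT2 2.1.0, SAMtools and HTSeq 0.10.0 on build ASM294v2, per the submitters' processing notes. Stranded mRNA libraries were read in paired ends, per the labels' protocols. The authors also deposited, per the file headers, a table for each mutant with log2 fold changes and their errors, p-values and adjusted p-values, under DESeq2's column names. Its deposited mean signal per feature and test score were not used.

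The counts went into edgeR 4.0.16 (R 4.3.3). The filter filterByExpr, at 10 counts per library and 15 in total, kept 6227 of 6988 features. After TMM scaling, 1 robust quasi-likelihood model without covariates covered all 9 libraries. The two-sided p-values of all features were adjusted together after Benjamini and Hochberg, with calls under 0.05. The steps were tested on simulated data. Levels are CPM over n = 3 libraries. Depth was 20.98 to 28.11 M counts, the biological coefficient of variation 3.95%, and the chi-square per degree of freedom between replicates 2.8 to 11.9, so that no pair agreed within sampling noise.

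Names, exon lengths and overlaps came from ASM294v3, with 6836 features found by locus tag, 3 by synonym and 149 unmatched. Since the builds differ, coordinates are left out. The 6 genes and the 10 pathway lists were chosen with earlier results of these data known. Of 222 list entries, 14 were dropped for their annotated product or as duplicates and 13 were not matched. Named list genes come from the 3 largest called rises and falls per list and mutant, beside pathway steps named whatever their value. Alternatives were DESeq2 1.42.0, its size factors, total-count scaling, no filter, a pairwise fit, a replicate block, a length offset (loess, span 0.5) and leaving out each library.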

Additional observations from a re-analysis of the deposited data

How the results depend on the processing

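Leaving out any library kept the direction of every member value that passed the test, and the number of members called ranged from 5 to 6 for the rsm1∆-labelled libraries, from 4 to 5 for nup211-1435* and from 5 to 6 between the mutants. For ura1 in the rsm1∆-labelled libraries the log2 fold change lay between 0.027 and 0.11, the latter without WT replicate 3 with an adjusted p of 0.0239. For fas1 in nup211-1435* it lay between 0.056 and 0.086, with an adjusted p of 0.0281 to 0.049 without replicates 2 or 3 of the rsm1∆-labelled libraries or without replicate 1 of nup211-1435*. For fas2 between the mutants it lay between 0.089 and 0.12. Total-count scaling brought ura1 to 0.22 in the former libraries, and cut6 to 0.18 and fas1 to 0.20 in nup211-1435*, all then called. The length offset turned ura1 to -0.32 and brr2 to -0.098 in the rsm1∆-labelled libraries, and cut6 to -0.45, fas1 to -0.42 and ura1 to -0.018 in nup211-1435*. With the replicate block added these were again -0.32, -0.098, -0.45, -0.42 and -0.017, and fas2 between the mutants was 0.055 (adjusted p = 0.0541). The offset also turned sea2 to -0.019 and cbf11 to -0.078 in nup211-1435* and cwf10 to -0.056 in the rsm1∆-labelled libraries, with or without the block. The cause was not tested. The deviations of same-numbered libraries from their strain means had correlations of -0.0801 to 0.0819, so no pairing by replicate number was visible. These values cannot show whether same-numbered cultures were grown or prepared together. The replicate block alone gave 4393, 4057 and 3133 calls beside 4405, 4042 and 3128, and 5, 4 and 6 members called as before. With coding length the fas1 to fas2 ratio was 1.14, 1.15 and 1.40 in WT, the rsm1∆-labelled libraries and nup211-1435*, and brr2 to spp42 was 0.830 in nup211-1435*. Of the other genes' values over 17 settings, 7 reversed, among them SPAC57A7.05 in nup211-1435* at 0.026 with total-count scaling. DESeq2, its size factors, the unfiltered and the pairwise fit changed no member call.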

Other observations

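The genes that flank the long genes were read for comparison. The neighbours of fas1 on the same strand, pos5 upstream and rpf2 downstream, fell in the rsm1∆-labelled libraries by 0.39 and by 0.36 on the log2 scale, beside the fall by 0.31 of fas1. In nup211-1435* neither passed the test, at -0.09 (adjusted p = 0.129) and -0.11 (adjusted p = 0.0638). Without WT replicate 2 rpf2 was at -0.17 there and passed (adjusted p = 0.000389). It also passed with DESeq2 size factors (adjusted p = 0.0489) and with the replicate block (adjusted p = 0.0451). Upstream of fas2, sds22 fell by 0.31 and by 0.17, the latter lost with total-count scaling (-0.033, adjusted p = 0.473), and the noncoding RNA SPNCRNA.839 downstream of fas2 rose from 23.0 ± 2.09 CPM to 33.2 ± 1.09 and 41.8 ± 2.49 (0.53 and 0.86). Downstream of ura1, the noncoding RNA SPNCRNA.678 fell from 9.37 ± 0.733 CPM to 6.50 ± 0.378 and 5.62 ± 0.858 (-0.52 and -0.74), while ime4 upstream rose by 0.22 and by 0.29. Upstream of spp42, rng2 rose by 0.36 and by 0.35, and under the length offset neither of these was called.

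Within the length range of the 6 genes, the largest changes belonged to other genes. The gene bfr1, for an efflux transporter of brefeldin A, rose from 208 ± 6.26 CPM to 605 ± 27.4 in the rsm1∆-labelled libraries (1.54) and to 998 ± 10.4 in nup211-1435* (2.26). The DNA repair gene mus7 rose by 1.12 and by 1.45, bgs2, for a glucan synthase of the spore wall, by 0.78 in the former, and cdc20, for the catalytic subunit of DNA polymerase epsilon, by 1.15 in the latter. The RNA helicase gene dbl8 fell by 0.39 and by 0.22, and in nup211-1435* msw1, for a tryptophan tRNA ligase, and SPAC57A7.05 fell by 0.15 and by 0.11 (adjusted p = 0.047 and 0.0462). Neither of these last calls held in the pairwise fit (adjusted p = 0.0723 and 0.0736) or in all fits without 1 library (adjusted p up to 0.226 and 0.179).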
